A study of Homo sapiens with 4 samples.

Results

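Of the 104156 Smad peaks in 4 ChIP-seq lists, 1009 lay at microRNA (miRNA) genes. A peak was counted when its interval shared at least 1 bp with a gene of type miRNA in GENCODE release 44 after that gene had been widened by 3 kb on each side. The annotation holds 1879 such genes of 41 to 180 bp, and the widened genes cover 9.99 Mb once overlaps are merged. The rule used positions only and no measured value. Cells of the human breast cancer line MDA-MB-231 carried a bacterial artificial chromosome with Smad2 or Smad3 and its own control elements, tagged at the C-terminus with LAP, a tag that holds GFP. Chromatin was precipitated with anti-GFP from untreated cells and from cells given 10 ng/mL TGFβ-1 for 2 h. The transfected pools had been selected with Geneticin and sorted for GFP, and the untagged Smad2 and Smad3 of the line were still present. Each of the 4 conditions, LAP-Smad2 and LAP-Smad3 untreated and with TGFβ-1, is 1 library, so that conditions differ without any measure of replicate spread and were not tested against each other.

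For the 2 untreated lists, labels and deposited names disagree on which Smad was tagged. The label is used for each list, and nothing is concluded from a difference between the 2. Of the 59 peaks near miRNA genes in the list labelled LAP-Smad3 untreated, 74.6% overlapped a peak of the LAP-Smad2 TGFβ-1 list, beside 71.2% of that list's other peaks, and 33.9% one of the LAP-Smad3 TGFβ-1 list, beside 19.1%. Of the 91 in the list labelled LAP-Smad2 untreated, 33.0% overlapped a LAP-Smad2 TGFβ-1 peak, beside 33.3% of its other peaks, and 50.5% a LAP-Smad3 TGFβ-1 peak, beside 39.8%. Without the short arm of chromosome 21, where copies of the ribosomal DNA lie, these shares near miRNA genes were lower. They were 68.1% and 17.0% of 47 peaks in the list labelled LAP-Smad3 untreated. In the list labelled LAP-Smad2 untreated they were 17.2% and 31.25% of 64 peaks. How deeply each library was sequenced is not in the lists, and a longer list can come from a deeper library.

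An miRNA is cut from a hairpin in a longer primary transcript, which is either a gene of its own or the transcript of a host gene whose exon or intron holds the hairpin. Bases 2 to 8 of the mature strand, the seed, pair with target mRNAs, so that miRNAs with the same seed share many targets. Receptor-activated Smads enter the nucleus with Smad4 after TGFβ signaling and bind promoters and enhancers, among them those of primary miRNA transcripts, and Smad proteins are also known to take part in the processing of some hairpins. The miR-200 family holds cells in an epithelial state by repressing ZEB1 and ZEB2, while miR-21, miR-155, miR-181 and the miR-23a and miR-24 clusters are known from epithelial-mesenchymal transition (EMT).

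RefSeq (GRCh38.p14) holds a mature sequence for 1683 of the 1879 miRNA genes and for 567 of the 626 that had a peak in any list. The mature strands below belong to the genes the results turn on, with the seed in capitals. They show that several clusters with a peak encode the same seed from different chromosomes. miR-17-5p and miR-20a-5p from chromosome 13 share AAAGUGC with miR-106b-5p and miR-93-5p from chromosome 7, and miR-92a-3p shares AUUGCAC with miR-25-3p. The clusters on chromosomes 19 and 9 each encode a miR-23, a miR-27 and miR-24.
miR-200c-3p: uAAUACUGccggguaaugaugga
miR-141-3p: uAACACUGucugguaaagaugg
miR-17-5p: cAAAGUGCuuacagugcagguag
miR-20a-5p: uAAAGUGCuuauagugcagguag
miR-106b-5p: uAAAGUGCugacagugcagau
miR-93-5p: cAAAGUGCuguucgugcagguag
miR-92a-3p: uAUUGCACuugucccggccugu
miR-25-3p: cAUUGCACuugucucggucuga
miR-181c-5p: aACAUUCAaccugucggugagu
miR-181d-5p: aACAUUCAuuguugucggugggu
miR-23a-3p: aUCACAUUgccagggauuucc
miR-23b-3p: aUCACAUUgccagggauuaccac
miR-27a-3p: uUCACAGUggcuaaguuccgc
miR-27b-3p: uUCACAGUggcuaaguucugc
miR-24-3p: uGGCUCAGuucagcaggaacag
miR-132-3p: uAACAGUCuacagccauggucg
miR-212-3p: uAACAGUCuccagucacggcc
miR-663a: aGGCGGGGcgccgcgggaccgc
miR-6724-5p: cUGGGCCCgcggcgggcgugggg
Among the 607 miRNA genes with a peak in either treated list, 786 mature strands carried 708 different seeds, and 63 seeds were carried by more than 1 strand. AAAGUGC was the seed carried by the largest number of these strands, 5.

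The windows below are the 200 bp on the centre of a peak, read from hg38. They are shown for MIR200C, MIR181C and MIR106B of the TGFβ and EMT list, for the miR-17-92 host MIR17HG and for peaks of high significance at MIR663A and MIR6724-4. Capitals mark CAGAC, the Smad box, and GGCGC, a GC-rich Smad motif, on either strand, which can overlap one another.
MIR200C and MIR141, LAP-Smad3 with TGFβ-1, far peak, chr12:6961956-6962155, plus strand: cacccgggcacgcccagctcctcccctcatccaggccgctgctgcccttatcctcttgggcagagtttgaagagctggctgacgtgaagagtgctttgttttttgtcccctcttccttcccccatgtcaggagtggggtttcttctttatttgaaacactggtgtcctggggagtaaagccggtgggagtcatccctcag
MIR200C and MIR141, LAP-Smad3 with TGFβ-1, near peak, chr12:6962687-6962886, plus strand: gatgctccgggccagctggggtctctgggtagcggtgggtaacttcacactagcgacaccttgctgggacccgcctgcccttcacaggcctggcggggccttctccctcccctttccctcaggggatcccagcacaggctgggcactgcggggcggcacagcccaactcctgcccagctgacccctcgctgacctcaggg
MIR17HG, LAP-Smad2 with TGFβ-1, first peak, chr13:91347779-91347978, plus strand: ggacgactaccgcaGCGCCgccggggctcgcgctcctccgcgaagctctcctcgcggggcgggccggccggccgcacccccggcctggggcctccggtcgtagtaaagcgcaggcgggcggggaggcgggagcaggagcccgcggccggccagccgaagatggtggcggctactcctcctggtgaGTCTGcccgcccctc
MIR17HG, LAP-Smad2 with TGFβ-1, second peak, chr13:91348118-91348317, plus strand: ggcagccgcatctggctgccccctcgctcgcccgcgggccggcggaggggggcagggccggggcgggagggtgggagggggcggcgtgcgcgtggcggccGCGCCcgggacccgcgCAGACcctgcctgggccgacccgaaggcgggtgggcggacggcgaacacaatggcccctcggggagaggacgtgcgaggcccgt
MIR181C and MIR181D, LAP-Smad2 with TGFβ-1, chr19:13877536-13877735, plus strand: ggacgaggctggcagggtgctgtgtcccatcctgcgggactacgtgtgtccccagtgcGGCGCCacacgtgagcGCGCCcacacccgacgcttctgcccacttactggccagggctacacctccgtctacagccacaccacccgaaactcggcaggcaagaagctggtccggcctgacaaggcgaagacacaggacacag
MIR106B, MIR93 and MIR25, LAP-Smad3 with TGFβ-1, chr7:100093822-100094021, plus strand: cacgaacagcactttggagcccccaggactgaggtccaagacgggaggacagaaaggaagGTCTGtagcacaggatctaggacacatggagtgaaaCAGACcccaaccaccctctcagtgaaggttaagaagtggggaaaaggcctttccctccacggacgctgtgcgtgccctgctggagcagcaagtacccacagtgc
MIR663A, LAP-Smad2 with TGFβ-1, chr20:26208224-26208423, plus strand: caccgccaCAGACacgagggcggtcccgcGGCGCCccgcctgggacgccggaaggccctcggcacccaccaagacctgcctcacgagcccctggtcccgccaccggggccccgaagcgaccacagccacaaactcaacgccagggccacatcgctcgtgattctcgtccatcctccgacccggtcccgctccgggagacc
MIR6724-4, LAP-Smad3 with TGFβ-1, chr21:8434057-8434256, plus strand: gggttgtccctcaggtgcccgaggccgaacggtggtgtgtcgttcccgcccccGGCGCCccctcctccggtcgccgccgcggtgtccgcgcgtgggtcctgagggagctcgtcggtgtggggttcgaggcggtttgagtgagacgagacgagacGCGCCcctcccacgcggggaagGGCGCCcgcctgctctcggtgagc
The windows at MIR200C held neither motif, both at MIR17HG held 1 CAGAC and 1 GGCGC, and that at MIR106B held 2 CAGAC. The window at MIR181C and MIR181D held 3 GGCGC and the one at MIR6724-4 held 5.

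The share of a list near miRNA genes was 0.928% (249 of 26828 peaks, Wilson 95% interval 0.820 to 1.05%) for LAP-Smad2 with TGFβ-1 and 0.975% (610 of 62551, 0.901 to 1.06%) for LAP-Smad3 with TGFβ-1. It was 0.808% (91 of 11266, 0.658 to 0.991%) in the list labelled LAP-Smad2 untreated and 1.68% (59 of 3511, 1.31 to 2.16%) in the list labelled LAP-Smad3 untreated. All intervals cover counting error only. If each peak lay with equal chance at any place on its own chromosome outside gaps in the sequence, 0.373 to 0.395% of the lists would fall near miRNA genes. This expected share was counted exactly over all places and no placement was drawn at random. The observed number was 2.36 times the expected one for LAP-Smad2 and 2.50 times for LAP-Smad3 with TGFβ-1, and 2.17 and 4.25 times in the untreated lists labelled LAP-Smad2 and LAP-Smad3. Among peaks without another copy the ratio of the list labelled LAP-Smad2 untreated was 1.33, with an interval of 0.829 to 2.12 that includes 1. Without the short arm of chromosome 21, where copies of the ribosomal DNA lie, the ratios were 2.28 and 2.35 in the treated lists and 1.55 and 3.50 in the untreated lists. The count was also made apart for summits near to and far from gene starts. Summits farther than 3 kb from any other transcript start fell near miRNA genes at 1.61 times the expected number for LAP-Smad2 and 2.30 times for LAP-Smad3 with TGFβ-1, when set against that part of the genome alone. Summits within 3 kb of such a start did so at 1.80 and 1.91 times the number expected there.

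**Figure D1:**
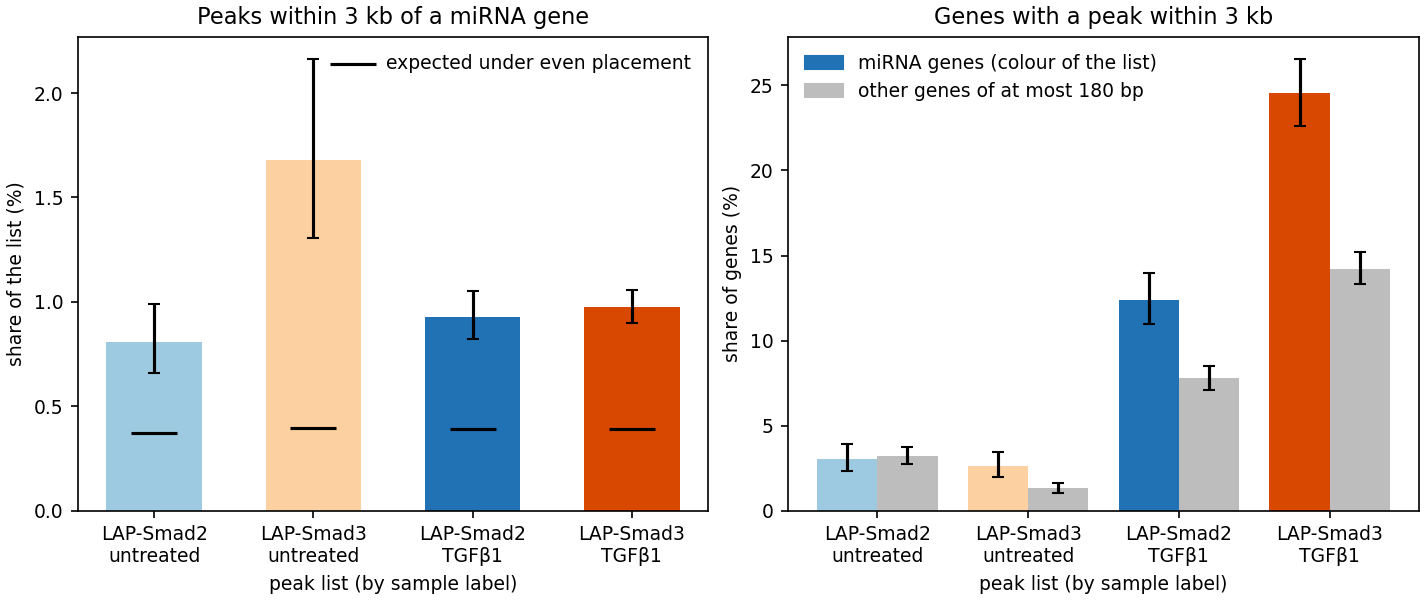
Left, share of each list's peaks within 3 kb of a miRNA gene (%), with the share expected under even placement as a black line. Right, share of the 1879 miRNA genes (coloured) and of the 5318 other genes of at most 180 bp (grey) with a peak within 3 kb (%). Bars end in Wilson 95% intervals. The treated lists reached 12.4% and 24.5% of the miRNA genes, above the grey bars at 7.78% and 14.2%.

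A peak lay within 3 kb of 233 miRNA genes (12.4%) for LAP-Smad2 and of 461 (24.5%) for LAP-Smad3 after TGFβ-1. With the LAP-Smad3 list cut by −log10 q to the length of the LAP-Smad2 list, LAP-Smad3 reached 207 genes, fewer than LAP-Smad2. Of the 5318 other annotated genes of at most 180 bp, treated in the same way, 7.78% and 14.2% had one. In the list labelled LAP-Smad2 untreated, 57 miRNA genes (3.03%) had a peak beside 3.22% of the other short genes, and in the list labelled LAP-Smad3 untreated 49 (2.61%) beside 1.32%. More miRNA genes than other short genes lay within 3 kb of a transcript start of a longer gene, 46.7% against 30.5%. Among genes close to such a start, 19.5% of the miRNA genes (interval 17.0 to 22.2%) and 14.1% of the other short genes (12.5 to 15.9%) had a LAP-Smad2 TGFβ-1 peak, and 29.6% (26.7 to 32.7%) and 19.3% (17.5 to 21.3%) a LAP-Smad3 TGFβ-1 peak. Among genes farther away the values were 6.19% (4.86 to 7.86%) and 5.01% (4.35 to 5.76%) for LAP-Smad2, whose intervals overlap, and 20.1% (17.7 to 22.7%) and 12.0% (11.0 to 13.1%) for LAP-Smad3. Genes close together share peaks and are not independent, so these intervals are narrower than they should be.

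Of the 607 miRNA genes with a peak after TGFβ-1, 87 had peaks of both Smads, 146 of LAP-Smad2 without LAP-Smad3 and 374 of LAP-Smad3 without LAP-Smad2. With lists of equal length, 49 had both. The 87 are 37.3% of the LAP-Smad2 genes and 18.9% of the LAP-Smad3 genes. For the other short genes these shares were 43.2% and 23.7%. The miRNA genes with no peak in any list numbered 1253, and 19 had a peak in an untreated list alone. Most genes had 1 peak: 196 of 233 for LAP-Smad2 and 323 of 461 for LAP-Smad3 with TGFβ-1, with 6 and 10 at the most.

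Of 60 miRNA genes listed for TGFβ signaling and EMT, 9 (15%) had a LAP-Smad2 TGFβ-1 peak and 20 (33.3%) a LAP-Smad3 TGFβ-1 peak, beside 12.4% and 24.5% of all miRNA genes. Many of these genes are neighbours in clusters and share peaks, so that they are not independent places. The untreated lists labelled LAP-Smad2 and LAP-Smad3 gave 1 (1.67%) and 3 (5%), beside 3.03% and 2.61% of all miRNA genes. The 3 were MIR23B, MIR27B and MIR24-1, all reached by the same peak. The epithelial miRNAs MIR200C and MIR141, whose host is MIR200CHG, had 2 LAP-Smad3 TGFβ-1 peaks and no peak in the other lists. The summits of these peaks lay 1566 and 815 bp upstream of MIR200C. Both had a fold enrichment over the local background of 4.97 and a −log10 q of 3.84. These values are the commonest in that list and were shared by 43 of its 610 peaks near miRNA genes (7.05%) and by 3874 of all its 62551 peaks (6.19%), so that many peaks at miRNA genes cannot be ranked. The other cluster of the family, MIR200A, MIR200B and MIR429, had no peak, nor had MIR21, MIR155, MIR205, MIR10B, MIR31 or MIR34A.

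MIR181C and MIR181D, which belong to a family known to rise with TGFβ, had a peak of both Smads at the same place 2.6 to 2.7 kb downstream of MIR181D in NANOS3. The LAP-Smad2 TGFβ-1 peak had a fold of 3.56 and a −log10 q of 4.24, and the LAP-Smad3 TGFβ-1 peak 5.93 and 6.25. Neither untreated list had one there. The cluster MIR23A, MIR27A and MIR24-2 had a LAP-Smad3 TGFβ-1 peak 2717 bp upstream of MIR23A (fold 4.63, −log10 q 4.02). A LAP-Smad2 TGFβ-1 peak on the other side of the cluster, 3180 bp downstream of MIR24-2, reached only the widened MIR24-2 (fold 3.13, −log10 q 3.23). The paralogous cluster MIR23B, MIR27B and MIR24-1, in AOPEP, had a LAP-Smad3 TGFβ-1 peak 445 bp upstream of MIR23B (fold 5.87, −log10 q 5.40) and a second on the other side of the cluster that reached the widened MIR24-1 (fold 4.97, −log10 q 3.84). A peak of the list labelled LAP-Smad3 untreated lay between these LAP-Smad3 TGFβ-1 peaks and overlapped neither (fold 3.39, −log10 q 3.15). It overlapped the hairpins of MIR3074 and MIR24-1.

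MIR192, a TGFβ-responsive miRNA of the kidney whose host is MIR194-2HG, had peaks of both treated lists at different places. The LAP-Smad3 peak lay 281 bp upstream of the neighbouring MIR194-2 (fold 4.66, −log10 q 4.32) and the LAP-Smad2 peak 3143 bp downstream of MIR192 (fold 3.34, −log10 q 4.52). MIR126, an endothelial miRNA in an intron of EGFL7, had 3 LAP-Smad3 TGFβ-1 peaks with folds of 5.74, 5.54 and 4.98. MIR183 and MIR96 also had 3 and their neighbour MIR182 had 1, with folds of 4.52 to 4.97. MIR206, a miRNA of muscle, had 1 over its hairpin (fold 5.52, −log10 q 4.72). MIR126, MIR183, MIR96, MIR182 and MIR206 had no LAP-Smad2 peak after TGFβ-1 and none in the untreated lists. The reverse held for MIR132 and MIR212, which answer to CREB in neurons, with 1 LAP-Smad2 TGFβ-1 peak 364 bp upstream of MIR212 (fold 3.30, −log10 q 3.90), and for MIR99B, MIRLET7E and MIR125A in SPACA6, with 1 peak 245 bp downstream of MIR125A (fold 3.61, −log10 q 4.53). MIR30C2 had a single peak, in the list labelled LAP-Smad2 untreated (fold 8.70, −log10 q 10.2), which was among those with another near-identical copy in hg38.

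**Figure D2:**
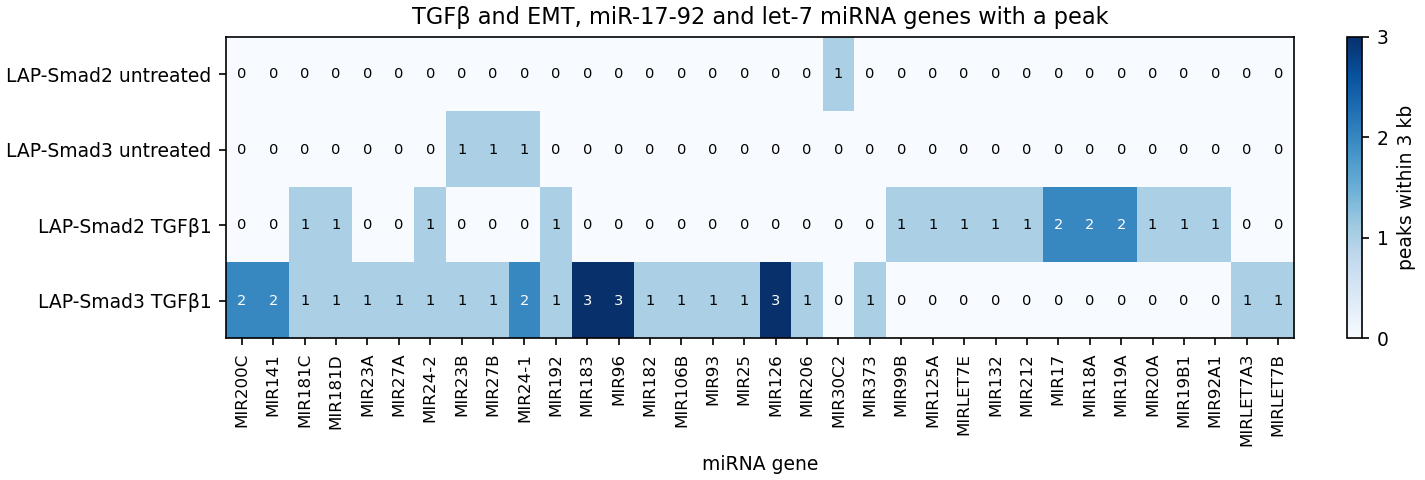
Number of peaks within 3 kb in each list (rows, by sample label) for the 34 miRNA genes of the TGFβ and EMT, miR-17-92 and let-7 lists that had a peak in any list (columns). Genes of 1 cluster share peaks. From MIR200C to MIR206 every gene has a LAP-Smad3 TGFβ-1 peak, and from MIR99B to MIR92A1 every gene has a LAP-Smad2 TGFβ-1 peak and no LAP-Smad3 peak.

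The miR-17-92 cluster, an oncogenic cluster with the host MIR17HG, had 2 LAP-Smad2 TGFβ-1 peaks at the start of the host, 2767 and 2379 bp upstream of MIR17. Their folds were 3.56 and 3.32 and their −log10 q values 2.95 and 2.44. No peak of another list lay within 3 kb of any of its 6 genes. Its paralog, MIR106B, MIR93 and MIR25 in an intron of MCM7, shares the seeds AAAGUGC and AUUGCAC but not that of miR-19a-3p. It had instead 1 LAP-Smad3 TGFβ-1 peak (fold 4.27, −log10 q 2.95) and no LAP-Smad2 peak. The LAP-Smad3 peak overlapped the hairpins of both MIR106B and MIR93. The other paralog, on the X chromosome, had none. Of the list's 15 genes, 6 (40%) had a LAP-Smad2 and 3 (20%) a LAP-Smad3 TGFβ-1 peak, beside 12.4% and 24.5% of all miRNA genes. Each of these counts comes from 1 cluster whose genes share peaks, so the genes are not independent. The 3 peaks described here lie below the median of their lists near miRNA genes, where the median −log10 q was 4.75 for LAP-Smad2 and 4.24 for LAP-Smad3.

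Of 12 let-7 genes, MIRLET7E had the LAP-Smad2 TGFβ-1 peak given above, and MIRLET7A3 and MIRLET7B a LAP-Smad3 TGFβ-1 peak 1080 bp downstream of MIRLET7B (fold 4.97, −log10 q 3.84). Of 6 miRNA genes in the HOX clusters, MIR10A in HOXB3 had a LAP-Smad3 TGFβ-1 peak and MIR196A1 in HOXB7 a LAP-Smad2 TGFβ-1 peak (fold 3.53, −log10 q 3.47). The LAP-Smad2 and LAP-Smad3 TGFβ-1 shares were 8.33% and 16.7% for let-7 and 16.7% and 16.7% for the HOX clusters. Those of all miRNA genes were 12.4% and 24.5%. Of 21 genes for miRNAs of muscle, liver, neurons and stem cells, 8 (38.1%) had a LAP-Smad3 TGFβ-1 peak and none a LAP-Smad2 TGFβ-1 peak, beside 24.5% and 12.4% of all miRNA genes. They were MIR1-1, MIR133A2, MIR206, MIR124-3, MIR9-1, MIR371A, MIR372 and MIR373. MIR371A, MIR372 and MIR373 are neighbours, so that the 8 genes are not independent places. MIR206 and MIR373 are also in the TGFβ and EMT list. The large miRNA clusters of chromosome 19, counted with the neighbouring MIR371 to MIR373, and of chromosome 14 had a LAP-Smad3 TGFβ-1 peak at 9 of 50 (18%) and at 14 of 52 genes (26.9%), beside 24.5% of all miRNA genes. They had a LAP-Smad2 TGFβ-1 peak at 0 and at 1 (1.92%), beside 12.4%. Neighbouring genes of a cluster can share peaks, so that these genes are not independent places either. The 14 genes on chromosome 14 lay in MIR493HG, MEG8 and MEG9, maternally expressed lncRNAs of an imprinted region for MEG8 and MEG9.

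The highest significance did not belong to these genes. Of the 20 peaks near miRNA genes with the highest −log10 q, 20, 17, 17 and 20 had a window with another near-identical copy in hg38 (list labelled LAP-Smad2 untreated, list labelled LAP-Smad3 untreated, LAP-Smad2 TGFβ-1, LAP-Smad3 TGFβ-1). A copy was counted where at least 180 of the 200 bases matched at another place. How reads were shared between such copies was not tested. In whole, 22.5% of the LAP-Smad2 and 33.8% of the LAP-Smad3 TGFβ-1 peaks near miRNA genes had another copy, less than the 40.5% and 43.5% of the other peaks of these lists, whereas 81.3% and 54.2% did in the untreated lists labelled LAP-Smad2 and LAP-Smad3, beside 68.6% and 50.7%.

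The short arm of chromosome 21 (below 13 Mb), where copies of the ribosomal DNA lie, held 27, 12, 12 and 41 of the peaks near miRNA genes, in the same order of lists. The count is by position, and whether each peak lies in ribosomal DNA was not tested. MIR6724, with 4 genes, and MIR3648, with 2, lie in the ribosomal DNA repeats. All 4 MIR6724 genes had peaks in all 4 lists, 23 in the list labelled LAP-Smad2 untreated with a −log10 q of up to 225, 10 in the list labelled LAP-Smad3 untreated with up to 22.0, 10 for LAP-Smad2 TGFβ-1 with up to 28.3 and 37 for LAP-Smad3 TGFβ-1 with up to 107. The 5 miRNA genes with the most peaks in both treated lists together were the 4 MIR6724 genes, with 13, 12, 12 and 10, and MIR3648-1, with 8. MIR663A, a GC-rich primate miRNA on chromosome 20 in an exon of MIR663AHG, also had a peak in every list. Its hairpin was overlapped by a peak in each of them, with a fold of 8.70 and a −log10 q of 39.1 for LAP-Smad2 TGFβ-1, 7.61 and 25.2 in the list labelled LAP-Smad3 untreated, 6.32 and 10.8 in the list labelled LAP-Smad2 untreated, and 2.48 and 1.90 for LAP-Smad3 TGFβ-1. The LAP-Smad2 TGFβ-1 window at MIR663A had no other copy at the 180-base limit, but that of the LAP-Smad3 TGFβ-1 peak over the hairpin had one. Another LAP-Smad3 TGFβ-1 peak near MIR663A, without another copy, had a fold of 3.58 and a −log10 q of 4.39. In all, 14 miRNA genes had a peak in every list: the 4 MIR6724 genes, both MIR3648 genes, MIR663A, MIR1302-2, MIR1302-3, MIR4477A, MIR8078 and the unnamed genes ENSG00000277437, ENSG00000264063 and ENSG00000275110. Of these, ENSG00000264063, on the short arm of chromosome 21, had the most significant LAP-Smad2 TGFβ-1 peak of all miRNA genes (chr21:8986619-8987697, fold 6.97, −log10 q 95.8), and MIR6724-4 the most significant LAP-Smad3 TGFβ-1 peak (chr21:8433975-8434339, fold 6.65, −log10 q 107).

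**Figure D3:**
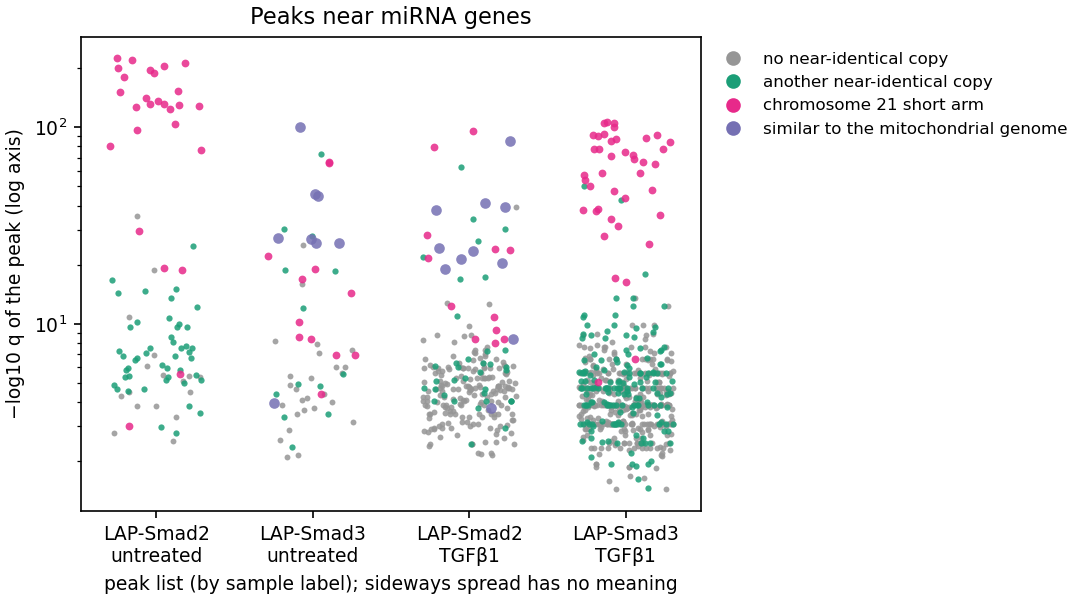
The −log10 q (log axis) of every peak near a miRNA gene in the 4 lists (by sample label). Colours mark peaks on the short arm of chromosome 21, peaks similar to the mitochondrial genome, other peaks with another near-identical copy and peaks without one. The highest point of each list is on the short arm or similar to the mitochondrial genome. Points of the latter kind are in the LAP-Smad3 untreated and LAP-Smad2 TGFβ1 columns only, with 8 and 11 points.

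A further group lay on copies of mitochondrial DNA in the nuclear genome. Of the peaks near miRNA genes, 8 of 59 in the list labelled LAP-Smad3 untreated (13.6%, beside 0.898% of its other peaks) and 11 of 249 for LAP-Smad2 TGFβ-1 (4.42%, beside 0.105%) aligned over at least 50% of their length to the mitochondrial genome. None of the 91 in the list labelled LAP-Smad2 untreated and none of the 610 for LAP-Smad3 TGFβ-1 did. They belong to 3 genes. MIR4485 on chromosome 11, whose sequence resembles mitochondrial ribosomal RNA, had 2 such peaks in the list labelled LAP-Smad3 untreated with a −log10 q of up to 101, and 3 LAP-Smad2 TGFβ-1 peaks with up to 85.4 and an identity to mitochondrial DNA of up to 96.7%. ENSG00000263963 in PCBD2 had 2 and 2 such peaks with up to 45.5 and 41.4, and ENSG00000278791 on chromosome 1 had 4 and 6 with up to 27.4 and 24.3. MIR8078 on chromosome 18 showed the same pattern of lists without this similarity, with 4 peaks in the list labelled LAP-Smad3 untreated and 3 for LAP-Smad2 TGFβ-1, and 1 in each of the others. The part of mitochondrial reads in these peaks was not tested.

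The opposite pattern was seen on chromosome 16. There 26 of 364 peaks of the list labelled LAP-Smad2 untreated and 70 of 1876 LAP-Smad3 TGFβ-1 peaks lay near miRNA genes, against 0 of 73 and 4 of 530 in the other 2 lists, and 25 of the 26 and 52 of the 70 had another copy. MIR6511, with 6 genes, among them MIR6511A1 in NPIPA1 and MIR6511A2 in NPIPA9, had 18 peaks in the list labelled LAP-Smad2 untreated (folds of 4.09 to 12.5) and 15 for LAP-Smad3 TGFβ-1 (3.44 to 6.77), against 0 and 1. MIR6770, with 3 genes beside it, had 8 and 10 against 0 and 1. The 4 MIR6859 genes, which lie at chromosome ends, had 23 LAP-Smad3 TGFβ-1 peaks (folds of 4.19 to 9.93), 1 LAP-Smad2 TGFβ-1 peak and none in the untreated lists. MIR3180, with 5 genes on chromosome 16, had 12 LAP-Smad3 TGFβ-1 peaks and none elsewhere. These families were chosen after their values were seen.

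Peaks without another copy numbered 193 for LAP-Smad2 and 404 for LAP-Smad3 with TGFβ-1, and 17 and 27 in the untreated lists labelled LAP-Smad2 and LAP-Smad3. They were ranked with chromosome 8 and the peaks similar to mitochondrial DNA left out. In this ranking the most significant LAP-Smad2 TGFβ-1 peaks after MIR663A were near MIR4477B (−log10 q 12.8), MIR6891 in HLA-B (12.6) and MIR4457 (9.76). For LAP-Smad3 TGFβ-1 they were near MIR8073 in an intron of the collagen gene COL4A2 (chr13:110343398-110343706, fold 9.93, −log10 q 13.6), MIR4482 (chr10:104268726-104268942, fold 9.34, −log10 q 12.3), MIR6834 in PFDN6, MIR1275 and MIR3652, whose hairpin in an exon of HSP90B1, a chaperone of the endoplasmic reticulum, was overlapped (each fold 8.28, −log10 q 9.88).

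At 48 LAP-Smad2 and 63 LAP-Smad3 TGFβ-1 peaks near miRNA genes, peaks of the 2 Smads that were both near a miRNA gene overlapped. Where neither window had another copy, 19 LAP-Smad2 peaks remained, 17 of them within 3 kb of another transcript start and 3 overlapping a peak of an untreated list. They lay near 18 miRNA genes by the nearest hairpin. MIR4482 had a LAP-Smad2 fold of 3.74 and a LAP-Smad3 fold of 9.34, MIR548AW in GFI1B 3.75 and 7.12, MIR6884 in MED24 3.13 and 6.33, MIR4277 4.10 and 6.07, and MIR625 in FUT8 3.89 and 5.52. MIR296 in a transcript of the imprinted GNAS region had 2 such places, with LAP-Smad2 folds of 4.13 and 3.86 and LAP-Smad3 folds of 4.90 and 4.97. Each list was scaled on its own, so that folds cannot be set against each other across lists.

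Overlap between the treated lists was no higher near miRNA genes than elsewhere. Of the LAP-Smad2 TGFβ-1 peaks near miRNA genes, 19.3% overlapped a LAP-Smad3 TGFβ-1 peak (interval 14.9 to 24.6%), beside 24.6% of its other peaks. In the other direction the values were 10.5% (8.30 to 13.2%) and 10.6%. Fold and −log10 q were also near those of the rest of each list. The median fold was 3.80 near miRNA genes and 3.98 elsewhere for LAP-Smad2 TGFβ-1, and 4.91 and 4.97 for LAP-Smad3 TGFβ-1.

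The density of summits rose toward the hairpins. With the chromosome 21 short arm left out, summits within 1 kb of a hairpin were 3.37 times as dense as the whole list for LAP-Smad2 TGFβ-1 and 2.86 times for LAP-Smad3 TGFβ-1. At 1 to 3 kb they were 2.13 and 2.49 times, and at 20 to 50 kb still 1.60 and 1.71 times as dense. The list labelled LAP-Smad3 untreated fell from 4.63 times within 1 kb to 1.23 times at 20 to 50 kb, and the list labelled LAP-Smad2 untreated from 2.02 to 1.10 times. Summits lay upstream of the nearest hairpin, on the strand of the miRNA, for 59.4% of the LAP-Smad2 (interval 53.2 to 65.3%) and 53.3% of the LAP-Smad3 TGFβ-1 peaks (49.3 to 57.2%). The median distance was 1114 bp and 1332.5 bp. A hairpin itself was overlapped by 36 LAP-Smad2 (14.5%) and 37 LAP-Smad3 (6.07%) TGFβ-1 peaks. Beside those already given, they were at MIR1343, MIR152, MIR34B and MIR150 among others for LAP-Smad2 and at MIR3652, MIR671 and MIR135A1 among others for LAP-Smad3.

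**Figure D4:**
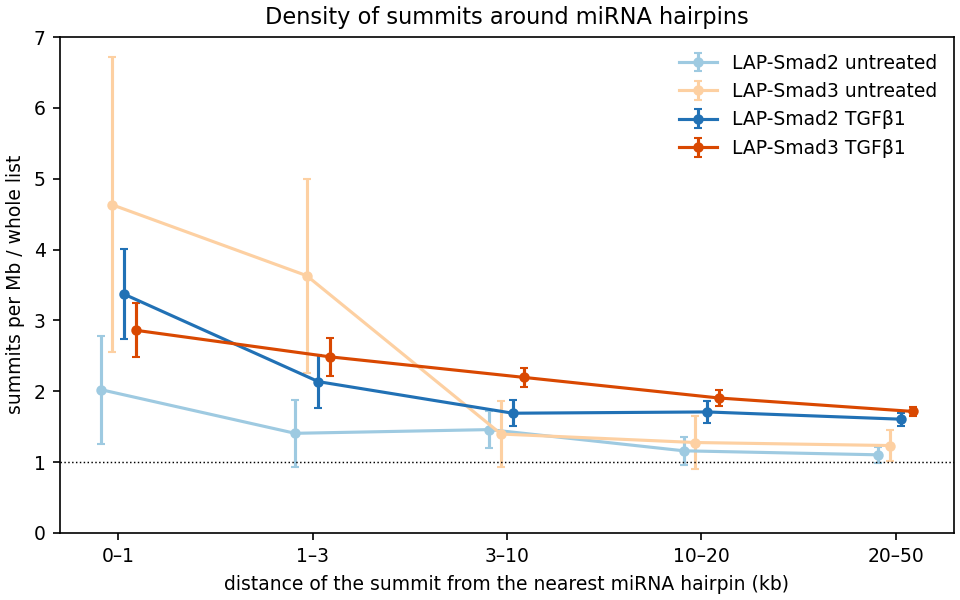
Density of peak summits (per Mb) in shells around the nearest miRNA hairpin (kb), divided by the density of the whole list, without the short arm of chromosome 21. Lines are the 4 lists by sample label, bars the 95% counting error, and the dotted line is the density of the list. Densities fall from 2.02 to 4.63 times within 1 kb to 1.10 to 1.71 times at 20 to 50 kb.

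The share of miRNA genes with a peak was of similar size in the larger host classes, and differences between classes were not tested. A LAP-Smad3 TGFβ-1 peak lay at 25.4% of the 991 miRNA genes in a protein-coding host on the same strand, at 21.9% of the 352 in a lncRNA host, and at 27.0% of the 300 between genes. For LAP-Smad2 TGFβ-1 these shares were 13.2%, 11.9% and 13.3%. The share was lower at the 72 hairpins that lay opposite a lncRNA only, 5.56% for LAP-Smad2 and 15.3% for LAP-Smad3 TGFβ-1. These values rest on 4 and 11 genes. At the 164 hairpins opposite a protein-coding gene only it was 9.76% and 24.4%. Hairpins in an exon of their host had a peak more often than those in an intron, 66 of 330 against 107 of 1013 (10.6%) for LAP-Smad2 and 104 (31.5%) against 225 (22.2%) for LAP-Smad3 TGFβ-1. Distance to a transcript start separated the genes further for LAP-Smad2 TGFβ-1. Of the 904 hairpins within 3 kb of another start 19.7% had a peak, and of the 975 farther away 5.64%. For LAP-Smad3 TGFβ-1 these were 266 (29.4%) and 195 hairpins. Of the peaks near miRNA genes, 58.2% for LAP-Smad2 and 64.9% for LAP-Smad3 TGFβ-1 overlapped a host on the same strand of any miRNA gene they lay near.

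**Figure D5:**
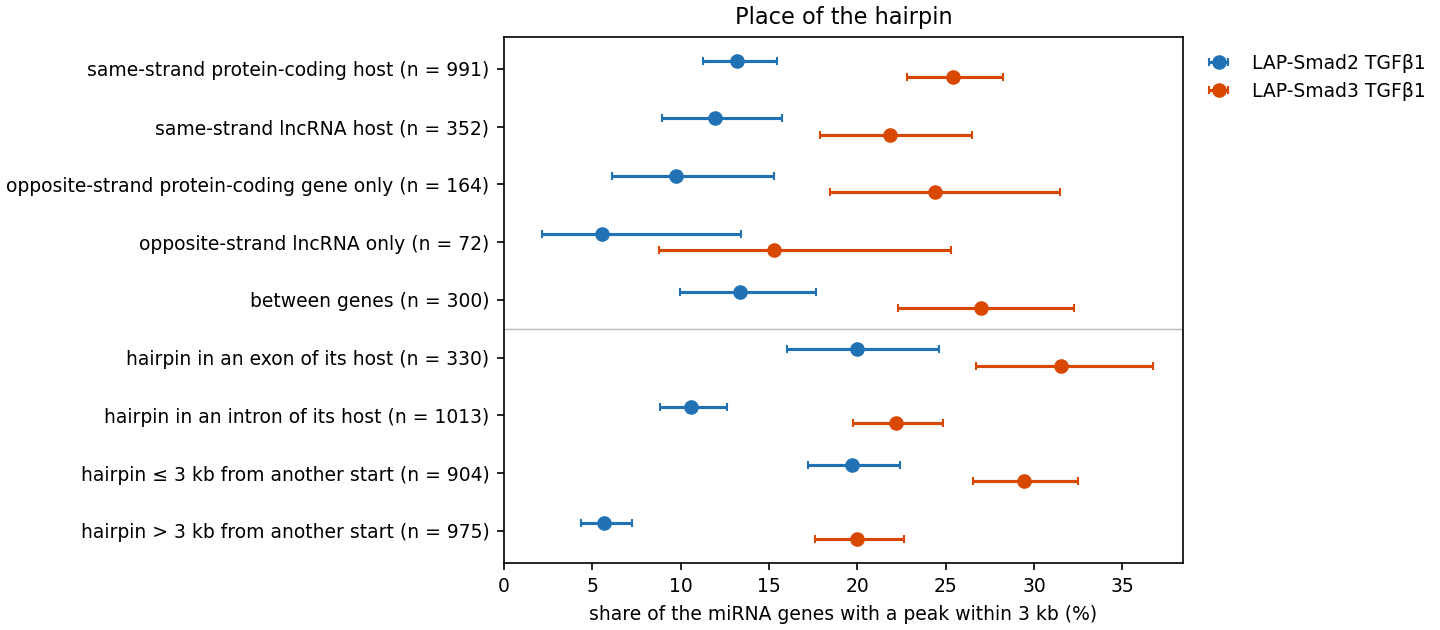
Share of miRNA genes with a TGFβ-1 peak within 3 kb (%) by the place of the hairpin, for LAP-Smad2 (blue) and LAP-Smad3 (orange), with Wilson 95% intervals and the number of genes of each class. Classes above the line are exclusive. For LAP-Smad2 the lowest value below the line, 5.64%, is that of hairpins farther than 3 kb from another start.

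Peaks near miRNA genes were more often near a transcript start than the rest of the treated lists. Within 3 kb of the start of a non-miRNA transcript lay 76.3% of them for LAP-Smad2 (interval 70.6 to 81.2%) and 63.4% for LAP-Smad3 TGFβ-1 (59.5 to 67.2%), beside 42.0% and 32.2% of the other peaks. Starts of protein-coding transcripts alone gave 45.0% beside 25.9% of the other peaks, and 28.9% beside 8667 of the 61941 other peaks. In the list labelled LAP-Smad2 untreated they gave 6.59% beside 7.76%. The rule itself favours places near a start of a non-miRNA transcript. Under even placement, 0.922% of LAP-Smad2 TGFβ-1 summits near such a start would fall near miRNA genes, against 0.230% of those farther away. For LAP-Smad3 TGFβ-1 these values were 0.959% and 0.231%. The GC content of the windows was 67.3 ± 8.45% (SD over 249 peaks) beside 63.8% for LAP-Smad2, and 61.3 ± 5.68% (SD over 610 peaks) beside 58.5% for LAP-Smad3 TGFβ-1. Among peaks near a start the means were 68.5% and 68.2% for LAP-Smad2 and 62.2% and 59.8% for LAP-Smad3. CAGAC, read on both strands, occurred in 35.3% of the LAP-Smad2 and 35.7% of the LAP-Smad3 TGFβ-1 windows near miRNA genes, beside 35.0% and 34.5% of the other windows. Among windows without another copy it occurred in 37.3% (interval 30.8 to 44.3%) beside 31.0% for LAP-Smad2 and in 40.6% (35.9 to 45.4%) beside 32.4% for LAP-Smad3 TGFβ-1. GGCGC occurred in 63.5% beside 56.7% for LAP-Smad2 but in 33.6% beside 43.3% for LAP-Smad3 TGFβ-1, so that the difference from the rest of the list had opposite signs. TGAGTCA, the AP-1 motif, occurred in 7 of 249 (2.81%, interval 1.37 to 5.69%) beside 0.933%, and in 10 of 610 (1.64%, 0.893 to 2.99%) beside 2.00%. In windows without another copy the LAP-Smad2 TGFβ-1 share was 2.59% beside 1.21%, and its interval of 1.11 to 5.92% includes the latter. For LAP-Smad3 TGFβ-1 these shares were 2.23% (1.18 to 4.18%) and 2.46%. A match is a stretch of letters and not a bound site.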

How the data were processed

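Anti-GFP chromatin immunoprecipitation of MDA-MB-231 cells was sequenced as 1 library for each of 4 conditions. Per the submitters' processing notes and the study's methods, the authors aligned reads with Bowtie2 to hg38 and called peaks for each library with MACS2, whose versions are not given in the sources used here. Each deposited narrowPeak list holds, as the authors' peak caller wrote them, the fold enrichment ratio over the local background, the −log10 p-value and −log10 q-value, and the offset of the summit as a score in bases. Reads per library are not in the lists, so the depth behind a peak is unknown and a share's interval (Wilson, 95%) reflects the number of peaks only.

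Peaks were set against GENCODE release 44 genes of type miRNA, widened by 3 kb, with an overlap of at least 1 bp (pysam 0.24.0 and pandas 2.3.3 in Python 3.11.15, with statsmodels 0.14.6). The share expected under even placement was counted over every possible place on the peak's own chromosome. Gene starts are those of all non-miRNA transcripts. Windows of 200 bp on peak centres were mapped to hg38 with minimap2 2.31-r1302, and another copy needed 180 matching bases (90%). Peaks were called similar to the mitochondrial genome when blastn (e-value limit 1e-10) aligned at least 50% of the peak. The functions for overlap and even placement passed 5 of 5 checks on simulated data. No column was left without a sample. The sequence of 1 peak window is not reported here.

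Genes named are those of the 8 lists with a peak, the 5 with the highest −log10 q in each treated list, near or over a hairpin, those with a peak in every list, and the 5 with the most treated peaks. Other genes named, among them those of the chromosome 16 families, of peaks without another copy, of places shared by both Smads and of further peaks over hairpins, were chosen after their values were seen. The members and the lists of miRNA genes were chosen with earlier results of these data known. With 1 library per condition, conditions were not tested against each other. Alternatives changed the widening, the peak threshold, the overlap rule, the length of the lists, the chromosome 21 short arm (below 13 Mb), the counting of genes, the gene starts, the window and, chosen after seeing the data, the peaks with another copy.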

Additional observations from a re-analysis of the deposited data

How the results depend on the processing

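No paired analysis was possible because each condition is 1 library. Values below are in the order LAP-Smad2 untreated, LAP-Smad3 untreated, LAP-Smad2 TGFβ-1, LAP-Smad3 TGFβ-1 by label where 4 are given. No ratio to even placement fell below 1 under the alternatives run, but that of LAP-Smad2 untreated among peaks without another copy had an interval of 0.829 to 2.12. A q-value limit of 0.01, the summit rule, merged loci and windows on the summit moved no value beyond its limit. Without widening, the shares near miRNA genes were 0.142, 0.370, 0.134 and 0.0592%, the genes with a peak 20, 15, 41 and 38, the ratios 5.17, 14.1 and 5.24 in the first 3 lists, the share near another start 53.8% for LAP-Smad3 untreated, the shares on a host 72.2% and 70.3% in the treated lists, and 9 genes had peaks of both treated lists. With 1 kb, the shares were 0.435, 0.854, 0.485 and 0.425%, the genes 30, 131 and 248 in the last 3 lists, the ratios 2.96, 5.53, 3.17 and 2.81, the share on a host 71.4% for LAP-Smad3 TGFβ-1 and the shared genes 35. With 10 kb, the shares were 2.16, 3.10, 2.27 and 2.65%, the genes 146, 85, 477 and 883, the ratios 2.57, 1.89 and 2.21 in the last 3 lists, the share near another start 67.2% for LAP-Smad2 TGFβ-1, the shares on a host 56.4% for LAP-Smad2 untreated and 55.8% for LAP-Smad3 TGFβ-1, and the shared genes 299. For LAP-Smad3 TGFβ-1 the ratio without widening was 2.38, beside 2.50. The cause of the moves in ratio, start and host shares was not tested. With both treated lists cut to the length of the shorter one, 207 genes had a LAP-Smad3 TGFβ-1 peak, fewer than the 233 of LAP-Smad2, and 49 had both, so that the larger number of LAP-Smad3 genes goes with the longer list. Without the chromosome 21 short arm, LAP-Smad2 untreated gave 0.577% and a ratio of 1.55. Near another start the shares were 2.43, 3.49, 1.66 and 1.83%, with ratios of 2.67 for LAP-Smad2 untreated and 1.80 and 1.91 for the treated lists, and away from starts 0.298, 0.622, 0.371 and 0.532% with ratios of 1.33, 2.67, 1.61 and 2.30. Protein-coding starts alone gave 6.59, 27.1, 45.0 and 28.9% near a start. Peaks without another copy, an alternative chosen after seeing the data, gave 0.483, 1.21 and 1.14% and ratios of 1.33, 3.08 and 2.91 for LAP-Smad2 untreated and the treated lists, 16 and 29 genes in the untreated lists, 47.1% near another start for LAP-Smad2 untreated, 74.1% and 72.5% on a host for the LAP-Smad3 lists, and 56 shared genes. That expected share still counts every place, copies included.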
